A study of Zea mays with 12 samples.

Results

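Maize endosperm of the cross Mo17xB73 was compared with the level that its 2 inbred parents would give if every parental genome copy contributed equally. Endosperm, the tissue that feeds the germinating seedling, receives 2 maternal genome copies and 1 paternal copy, so the expectation for each probe set was (2 x Mo17 + 1 x B73)/3 on the linear scale. The comparison used 9 of the 12 arrays of the series: 3 arrays of Mo17xB73 as the group of interest, and 3 arrays each of the inbreds Mo17 and B73 as the source of the expectation. The 3 arrays of the reciprocal cross B73xMo17 were set beside them. The labels do not say which parent was the female, and the usual order, female first, was taken.

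All 4 genotypes were sampled at 19 days after pollination from field-grown plants of 1 season, and the labels name no mutation, transgene or treatment. Each array carried RNA from 36 pooled endosperms, 6 from each of 6 ears, and all genotypes of a replicate were crossed on 1 of 3 dates, so the replicate number marks a shared date. All pools came from a single field, so the tests cover only the spread among them.

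At this stage the starchy endosperm fills with zein storage proteins and starch, while the basal endosperm transfer layer, a sheet of cells facing the mother plant, imports sugar and amino acids and secretes small cysteine-rich peptides. Endosperm is also the plant tissue in which imprinting is best known: for some genes only, or mainly, the copy inherited from one parent is active. An imprinted gene whose parental alleles differ in strength need not follow the 2 to 1 dose. Levels below are MAS5 signal intensities, one value per probe set and array, after scaling the arrays to a common 2% trimmed mean, and a departure is the log2 ratio of the observed level to the expectation with 10.6 added to both.

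The deposited trimmed means were 378, 371.8 and 410.5 in the Mo17xB73 arrays, 299.7, 421.4 and 451.6 in the Mo17 arrays, and 302, 331.2 and 362 in the B73 arrays, and arrays of a genotype correlated at 0.979 to 0.993 over log2 levels. Storage protein genes were at the top of the range, as in z1D_2, an alpha zein, which averaged 14000 in Mo17xB73, 13200 in Mo17 and 15600 in B73. Of 17621 probe sets that were not Affymetrix controls, 11747 were tested. The number of arrays limits the precision: the median 95% interval of a departure reached 0.29 to either side on the log2 scale.

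Most transcripts of Mo17xB73 endosperm lay close to the dose-weighted level. The median departure over the 11747 probe sets was -0.02, the middle 50% lay between -0.13 and 0.1, and 97.5% were within 1.5-fold of expectation. These figures cannot tell parental weights apart, since no inbred difference was called at 6114 of the probe sets. With weights of 1 to 1 and 1 to 2 the median departure was -0.02 and -0.01. Among 1920 probe sets whose inbreds differed clearly, Mo17xB73 sat at 0.34, 0.327 and 0.339 of the way from Mo17 to B73 on the 3 dates. The mean was 0.335 ± 0.00761 (SD, n = 3), against the 0.333 that the dose gives. Single probe sets were spread around it, with quartiles of 0.217 and 0.454.

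**Figure D1:**
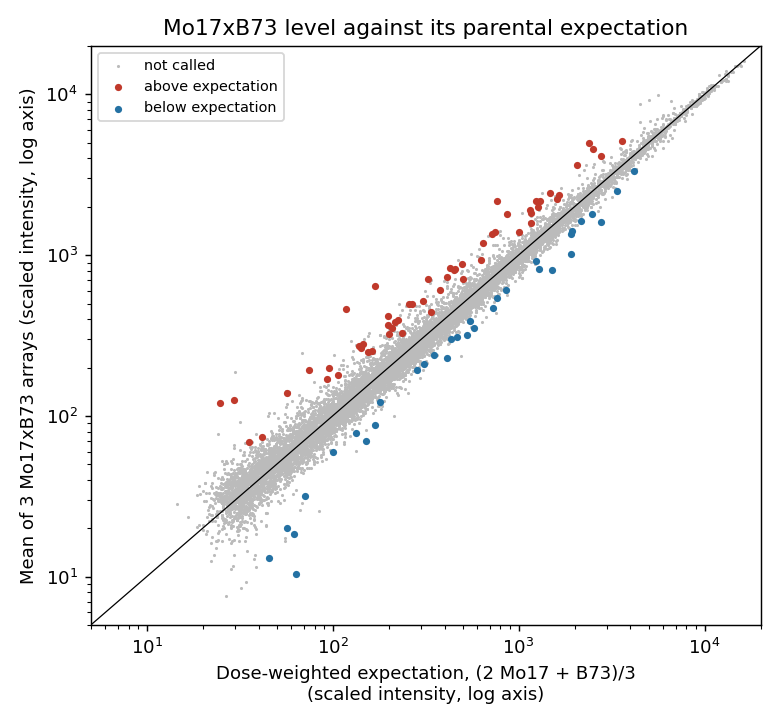
Mean intensity of the 3 Mo17xB73 arrays (vertical, log axis) against the dose-weighted expectation from the Mo17 and B73 arrays (horizontal, log axis), one point per tested probe set, with the line of equality. The 56 red points were above expectation and the 33 blue points below it at an adjusted p under 0.05, while the grey mass of the 11747 follows the line.

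Departures were few. In a limma fit of the 4 genotypes, 89 probe sets (0.758%) departed at a Benjamini-Hochberg adjusted p under 0.05, and 1423 had an unadjusted p under 0.05. Of the 89, 56 (0.477% of those tested) were above expectation and 33 (0.281%) below it. With the crossing date as a block the count was 227 (1.93%), made of 128 above and 99 below, and it held all 89. Departures above ran between 0.38 and 1.89 with a median of 0.81, and those below between -0.33 and -1.82 with a median of -0.63. Only 11 of the called departures above and 4 of those below reached 2-fold.

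The count and its direction depended on the arrays and the scaling. All 89 had the same sign on each of the 3 dates, a share that the choice of the 89 raises by itself. Of the 11747 tested, 4584 (39%) did. The share above expectation was 62.9% with the trimmed mean, 94.6% on the values as deposited, 52.3% after quantile normalization and 32.1% after median centring, which moved the median departure to -0.12. Leaving out 1 Mo17xB73 array left 36, 55 and 20 probe sets called for replicates 1, 2 and 3. Leaving out 1 inbred array left 125, 52 and 57 for Mo17 and 55, 44 and 50 for B73. Without all arrays of replicate 1, 2 or 3, each a crossing date, 132, 5 and 2 probe sets were called.

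**Figure D2:**
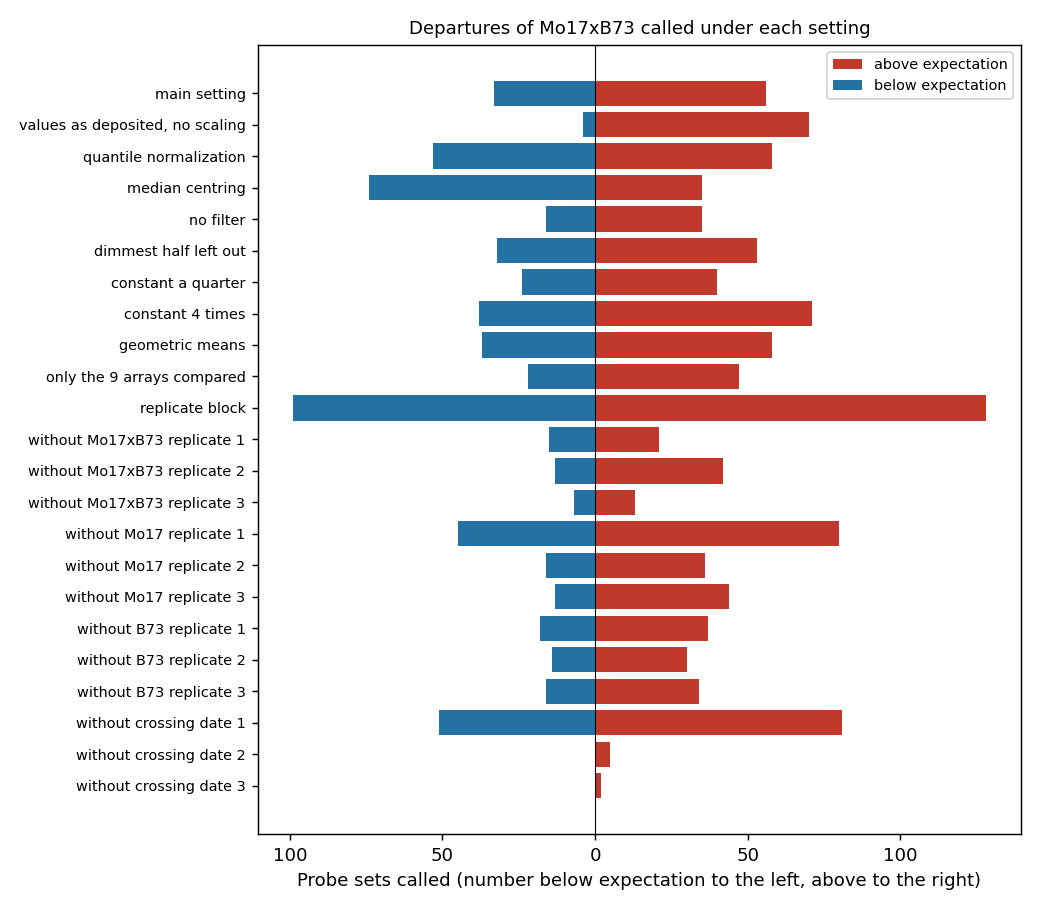
Number of probe sets called as departing in Mo17xB73 under the main setting and each alternative that kept the 2 to 1 linear expectation, with calls above expectation to the right in red and calls below to the left in blue. The main setting gave 56 above and 33 below, median centring 35 above and 74 below, and the fit without crossing date 3 gave 2 above and 0 below.

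Most departing probe sets, 78 of 89, were ones whose inbreds differed, as did 5633 of all tested (48%). Where B73 was called higher than Mo17 (2754 probe sets), 35 departed above (1.27%) and 21 below (0.763%), and where Mo17 was higher (2879), 13 departed above (0.452%) and 9 below (0.313%). Where no inbred difference was called (6114), 8 departed above and 3 below. In the first of these groups the split was 50 above and 3 below on the values as deposited, and 23 above and 39 below after median centring. Of the 78 departing probe sets with a called inbred difference, the Mo17xB73 mean lay beyond Mo17 in 28, beyond B73 in 20, and between the inbred means in the other 30, without a test of those positions. The call itself favours positions away from the 0.333 of the dose, and these classes were not counted over all 5633. Over the 1920 probe sets whose inbreds differed clearly, the quartiles of the position were 0.217 and 0.454.

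Brighter probe sets were called more often. The called share was 0.358% among the dimmest tested probe sets, 0.792% in the middle and 1.12% among the brightest, beside median standard errors of 0.19, 0.128 and 0.099. Annotation reached few of them: 7 of the 89 (7.87%) had a named gene, beside 865 of the 11747 tested. These 7 probe sets stood for 6 genes, of which 2 were above expectation and 4 below.

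The first is meg2, a member of the maternally expressed gene family that encodes small secreted peptides of the transfer cells. Its probe set Zm.12666.1.S1_x_at read 2070, 2340 and 2150 in Mo17xB73, 1540, 1600 and 2160 in Mo17, and 459, 323 and 340 in B73. The Mo17xB73 pools stood far above B73 and overlapped the highest Mo17 pool. The mean of 2180 ± 139 (SD, n = 3) compares with an expectation of 1300, a departure of 0.74 (SE 0.139, limma adjusted p = 0.0261), and did not pass the test against Mo17 (adjusted p = 0.206). A further meg2 probe set, Zm.12666.1.S1_a_at, averaged 3640 against an expected 2060, a departure of 0.82 (adjusted p = 0.0455). The suffix of the first marks probes that can cross-hybridise to other sequences, so the family member cannot be told apart from it. Under 9 and 12 of 25 alternatives these 2 calls were lost, among them the values as deposited, median centring, and leaving out any 1 Mo17xB73 array.

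The second is tub5, a beta tubulin, the subunit of microtubules. Probe set Zm.4718.2.S1_a_at read 288, 365 and 323 in Mo17xB73, 147, 156 and 141 in Mo17, and 350, 300 and 277 in B73. The Mo17xB73 pools were all above Mo17 and overlapped B73, the parent with a single dose. The departure was 0.66 (SE 0.107, adjusted p = 0.0129), from a mean of 325 against an expected 201. A brighter tub5 probe set, Zm.4718.1.S1_at, departed by 0.32 and did not pass the test (adjusted p = 0.412). The call was lost without Mo17xB73 replicate 2 or 3 (adjusted p = 0.0539 and 0.0675). It was also lost with weights of 1 to 2 and without crossing date 2 or 3.

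Below expectation stood mez1, one of the maize Enhancer of zeste genes, whose protein is the histone methyltransferase of Polycomb repressive complexes and whose maternal copy is the active one in endosperm. It read 616, 610 and 589 in Mo17xB73, 768, 725 and 644 in Mo17, and 1220, 1210 and 1040 in B73. All 3 Mo17xB73 pools were below all 3 Mo17 pools, which were themselves below B73. The mean of 605 ± 14.1 (SD, n = 3) compares with an expected 860, 1.41-fold lower, a departure of -0.50 (SE 0.106, adjusted p = 0.0455). Mo17xB73 did not pass the test against Mo17 (adjusted p = 0.285). The call was lost under 16 of 25 alternatives, among them leaving out any single array and the values as deposited (adjusted p = 0.39). The departure stayed between -0.41, on the values as deposited, and -0.73, with weights of 1 to 2. Those weights raise the expectation of a gene that is higher in B73.

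The other 3 named genes below expectation were copz1, ANT-G2 and SRP1A. For copz1, a zeta subunit of the coatomer that coats Golgi vesicles, the levels were 1590, 1690 and 1580 in Mo17xB73, 2120, 2070 and 2090 in Mo17, and 2200, 2250 and 2450 in B73. It was the named gene that lay below both parents, with adjusted p = 0.00803 against Mo17 and 0.000285 against B73. Its departure was -0.41 (SE 0.071, adjusted p = 0.0162). The call was lost on the values as deposited (adjusted p = 0.508) and without Mo17xB73 replicate 1 or 3 (adjusted p = 0.062 and 0.0983). Leaving out crossing date 2 or 3 also ended it.

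ANT-G2, a mitochondrial ADP/ATP translocator, read 1360, 1390 and 1520 in Mo17xB73, 1610, 1790 and 1770 in Mo17, and 2510, 2410 and 2260 in B73. Its departure was -0.45 (SE 0.089, adjusted p = 0.0335), with the call kept without Mo17 replicate 1 and lost without any other single array. On the values as deposited the ANT-G2 call was lost too (adjusted p = 0.543). SRP1A read 255, 213 and 254 in Mo17xB73, 383, 430 and 385 in Mo17, and 290, 241 and 234 in B73, so the hybrid sat with its single-dose parent. Its departure was -0.53 (SE 0.109, adjusted p = 0.0441), and 15 of 25 alternatives lost the call. Among them were the values as deposited (adjusted p = 0.311) and leaving out any single array other than Mo17 replicate 1.

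**Figure D3:**
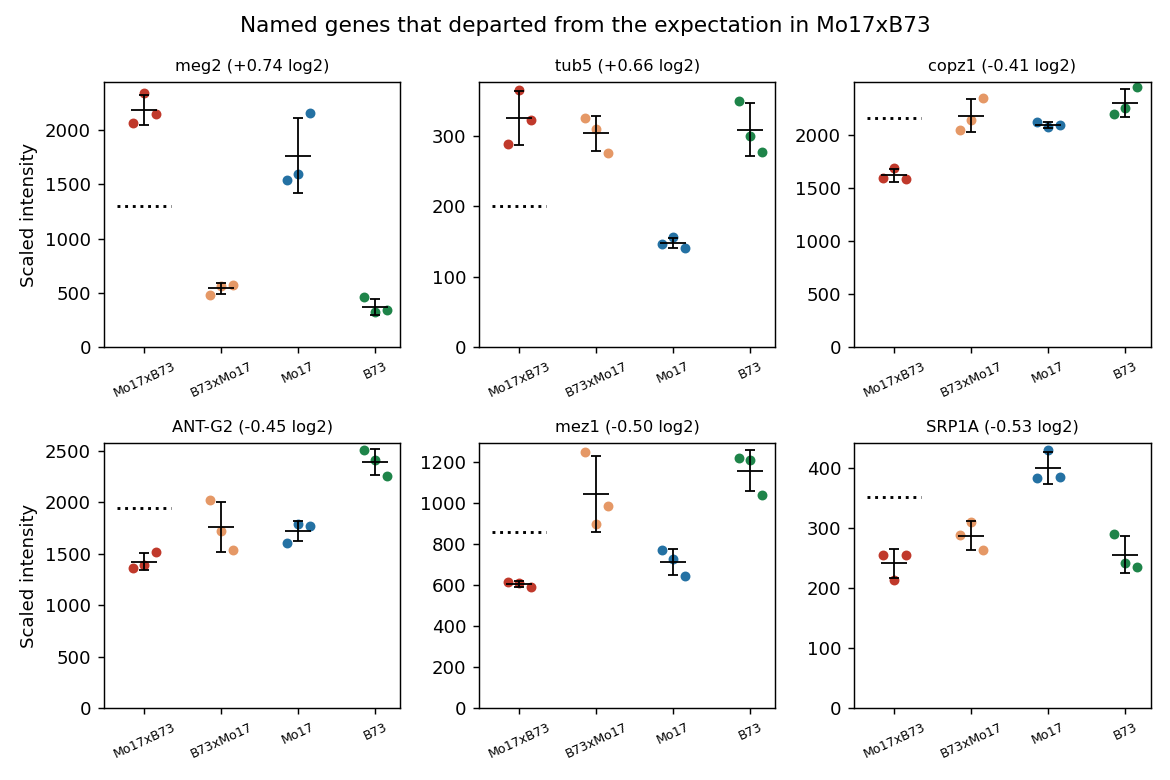
Scaled intensity (linear axis from 0) of the 6 named genes that departed, one panel a gene, with the 3 arrays of each genotype as points, mean and SD in black, and the expectation for Mo17xB73 as a dotted line. The Mo17xB73 points lie above the dotted line for meg2 and tub5 and below it for copz1, ANT-G2, mez1 and SRP1A.

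Larger departures belonged to probe sets with no gene in the annotation used. Above expectation, Zm.15874.1.A1_at read 455, 925 and 553 in Mo17xB73, 37.7, 29.5 and 36.8 in Mo17, and 450, 425 and 449 in B73. Every Mo17xB73 pool was above every pool of its single-dose parent, with a departure of 1.86 (SE 0.183, adjusted p = 0.000291). Zm.12640.1.S1_at read 115, 112 and 136 in Mo17xB73, 32.7, 1.43 and 12.3 in Mo17, and 30.4, 50.4 and 50.2 in B73. It was above both parents in all pools and departed by 1.89 (adjusted p = 0.019), and leaving out any 1 Mo17xB73 array ended the call. Zm.17089.1.A1_at, with 836, 276 and 276 in Mo17xB73 against 98.4, 51.7 and 55.6 in Mo17 and 206, 245 and 202 in B73, departed by 1.88 (adjusted p = 0.0112). Its replicate 1 pool was far above the other Mo17xB73 pools, and without it the departure was 1.15 (adjusted p = 0.0221).

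Below expectation, the 3 unnamed probe sets with the largest departures were dim in the hybrid. Zm.18395.1.S1_at read 5.86, 18.9 and 6.47 in Mo17xB73, 11.9, 1.77 and 4.34 in Mo17, and 127, 214 and 195 in B73, a departure of -1.82 (adjusted p = 0.0194). The hybrid overlapped Mo17 and stood apart from B73. Several of these readings lie under the constant of 10.6 added before the log, and the departure was -2.34 with a constant of 2.65, -1.01 with 42.4, and -0.84 without a call (adjusted p = 0.173) on a log2-scale expectation. Zm.17251.1.A1_at, whose hybrid pools lay above all Mo17 pools and below all B73 pools, read 7.38, 6.15 and 25.5 in Mo17xB73, 3.04, 3.43 and 4.92 in Mo17, and 161, 108 and 117 in B73 (departure -1.25, adjusted p = 0.0441). Zm.16299.2.A1_a_at read 23.1, 22.7 and 9.6 in Mo17xB73, 58.1, 32.1 and 29.8 in Mo17, and 98, 135 and 86.1 in B73 (departure -1.32, adjusted p = 0.0134). With the constant of 42.4 Zm.17251.1.A1_at departed by -0.67 and Zm.16299.2.A1_a_at by -0.78. Leaving out Mo17xB73 replicate 3 ended the call of Zm.16299.2.A1_a_at. That of Zm.18395.1.S1_at ended without Mo17xB73 replicate 1 or 3 or B73 replicate 2 or 3, and 15 of 24 alternatives ended that of Zm.17251.1.A1_at. Whether a probe set matches both parental alleles equally was not tested.

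Levels outside both parents were rare. Counting departing probe sets that also passed the test against each inbred, 21 (0.179%) lay outside, 17 above and 4 below, and 62 did with the crossing date as a block. After median centring the direction turned, with 11 above and 21 below, and after quantile normalization it was 16 above and 11 below, while the values as deposited gave 17 and 1. Without asking for the call of the departure, 26 were above both parents and 18 below, and 15 and 44 after median centring. For scale, Mo17xB73 differed from Mo17, its double-dose parent, at 1255 probe sets (10.7%; 889 higher, 366 lower) and from B73 at 3907 (33.3%; 1955 higher, 1952 lower). The share higher than Mo17 was 70.8%, with 90.5% on the values as deposited and 48.9% after median centring. The share higher than B73 was 50%, with 78% on the values as deposited and 41.2% after median centring.

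The probe set with the smallest p of all, Zm.12634.1.A1_at, was chosen after its values were seen. It read 1950, 2540 and 2000 in Mo17xB73, 1940, 1430 and 1470 in B73xMo17, 799, 799 and 834 in Mo17, and 681, 732 and 626 in B73. Both hybrids stood above both inbreds in every pool. Its departure was 1.48 in Mo17xB73 (adjusted p = 3.37e-05) and 1.15 in B73xMo17 (adjusted p = 0.000122), and the 2 departures did not pass the test of their difference (0.33, adjusted p = 0.188).

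Genes of the basal transfer layer were above expectation in Mo17xB73, though most missed the threshold. Of 11 such genes on the array 8 were tested, and all 8 were above expectation (45.3% of all tested), with a median departure of 0.71 beside -0.02 over all tested. A single one, meg2, was called, and with the crossing date as a block betl2 was too (adjusted p = 0.0522 without the block and 0.0239 with it). MRP1, the transcriptional activator of these genes, and ebe1 and ebe2 were too dim to be tested. In each of 25 alternatives all 8 stayed above expectation, with medians of 0.6 (median centring) to 1.14 (weights of 1 to 2). Weights of 1 to 1 and 1 to 2 lower the expectation of genes higher in Mo17, such as meg2, betl2 and bap-1a. Under those weights a larger departure was fixed in advance for such genes, and all alternatives reuse the same arrays. None of the 8 passed the test of Mo17xB73 against Mo17, the double-dose parent.

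The betl2 gene, which encodes a small secreted peptide, read 1220, 1440 and 1610 in Mo17xB73, 263, 377 and 443 in B73xMo17, 907, 1010 and 1310 in Mo17, and 265, 232 and 182 in B73. Its departure was 0.83 (SE 0.183). The Mo17xB73 pools overlapped the upper end of the Mo17 pools, and 2 of the 3 B73xMo17 pools were above all B73 pools. For bap-1a, another basal layer peptide gene, the levels were 404, 490 and 556 in Mo17xB73, 87.9, 128 and 151 in B73xMo17, 313, 342 and 468 in Mo17, and 146, 138 and 94.8 in B73 (departure 0.71, adjusted p = 0.126).

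The remaining members are given for completeness, outside the naming rule. BET1, a gene of the same layer, averaged 2050 ± 178 in Mo17xB73, 1840 ± 537 in Mo17 and 582 ± 97.1 in B73 (SD, n = 3 each), a departure of 0.53 (adjusted p = 0.331). Departures were 0.76 for betl3, 0.72 for betl4, 0.67 for bap1-b and 0.28 for meg6, none past the threshold. These genes come in families of similar sequence, and their probe sets may share signal.

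**Figure D4:**
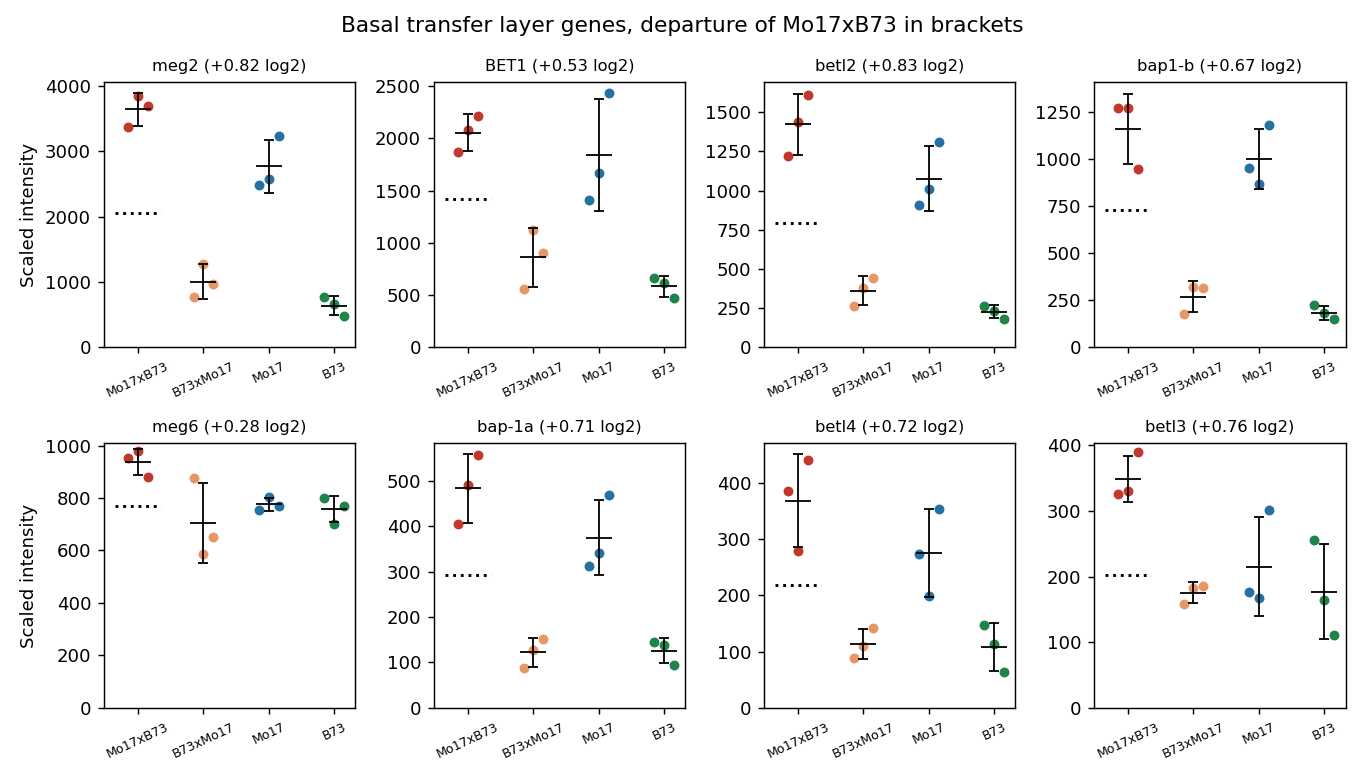
Scaled intensity (linear axis from 0) of the 8 tested basal transfer layer genes, with arrays as points, mean and SD in black, and the dose-weighted expectation for Mo17xB73 as a dotted line. The Mo17xB73 mean is above the dotted line in all 8 panels, and in 6 of them the B73xMo17 points lie below every Mo17 point.

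Markers of other tissues were summed beside these genes. The summed intensity of the 8 transfer layer genes ran from 9800 to 10700 in Mo17xB73, 2970 to 4100 in B73xMo17, 7260 to 10100 in Mo17 and 2320 to 3260 in B73. The summed embryo markers ran from 1720 to 2320 in Mo17xB73, 653 to 1740 in B73xMo17, 1510 to 1830 in Mo17 and 481 to 1030 in B73. All 4 tested embryo markers were above expectation without passing the test: glb1, an embryo globulin, by 0.76 (adjusted p = 0.557), ole1, an oil body protein, by 0.61 (adjusted p = 0.58), the dehydrin rab17 by 0.58 (adjusted p = 0.243) and a4Lea by 0.15. Their median was 0.59, and glb2, EMB5 and mlg3 were too dim to be tested. The summed aleurone and outer layer genes ran from 11300 to 11700 in Mo17xB73, 10000 to 12400 in B73xMo17, 10400 to 11000 in Mo17 and 11500 to 13600 in B73. The part of tissue composition in these departures was not tested, and in pooled tissue a changed share of cells and a changed amount of RNA per cell cannot be told apart.

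Of 3 tested genes described as imprinted in the literature, or as the counterpart of one, mez1 alone was called, below expectation. The departures of all 3 were negative with a median of -0.47, the value of fie1, beside 45.3% of all tested probe sets above expectation. This list does not hold meg2, of the maternally expressed gene family, whose 2 probe sets departed above expectation (0.74 and 0.82). For fie1, a Polycomb gene active from its maternal copy in endosperm, the levels were 644, 762 and 666 in Mo17xB73, 787, 963 and 740 in Mo17, and 1360, 1200 and 1120 in B73. It departed by -0.47 (SE 0.117, adjusted p = 0.0871, and 0.0362 with the crossing date as a block). Its paralogue fie2, described as active from both copies later in endosperm development, departed by -0.09 (adjusted p = 0.894). In both mez1 and fie1 the mean of the hybrid was below that of Mo17, the lower parent. Neither passed the test against Mo17 (limma adjusted p = 0.285 and 0.279).

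Among 54 chromatin and DNA methylation genes only mez1 was called, and the median was -0.02. With the block fie1 and set105, a SET-domain gene, were called too. set105 read 1250, 1100 and 1150 in Mo17xB73, 1700, 1550 and 1510 in Mo17, and 1190, 1110 and 1090 in B73, a departure of -0.29 (adjusted p = 0.132, and 0.049 with the block). The 3 tested histone genes had a median of 0.

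The medians of storage protein and starch genes were near expectation. The 8 zein genes had a median departure of 0 with 4 above and 4 below, and none was called. The largest was dzs18, a methionine-rich delta zein, with 9930, 8770 and 10900 in Mo17xB73, 36.4, 20.8 and 65.4 in Mo17, and 18400, 15600 and 16100 in B73. On this probe set, Zm.9008.2.A1_a_at, Mo17 was all but without signal. The hybrid with 1 dose of B73 averaged 9850 against an expected 5600, a departure of 0.81 (adjusted p = 0.11, and 0.0407 with the block). Over 25 alternatives the departure ran from -0.18 to 4.86, with a call in 7. In B73xMo17 the probe set read 17200, 18300 and 17700, overlapping B73. Other dzs18 probe sets departed by 0.88, 0.95 and 0.94 (adjusted p = 0.128, 0.207 and 0.0691). The first of these, Zm.9008.1.A1_at, averaged 398 in Mo17. z1C1_12, an alpha zein, departed by 0.58 (adjusted p = 0.212, and 0.0233 with the block), and z1C1_20 by -0.11.

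Of 19 starch and sucrose genes 9 were above and 10 below, with a median of 0 and no call. Agpsemzm, a small subunit of ADP-glucose pyrophosphorylase, departed by -0.22 (adjusted p = 0.228), ae1, a starch branching enzyme, by -0.20 (adjusted p = 0.245) and the sucrose transporter sut1 by 0.55 (adjusted p = 0.423). The endosperm transcription factors were alike: among 8 tested with a median of 0.03, PBF, a Dof factor that activates zein genes, departed by -0.17, ohp1 by 0.34 and Nkd1, a regulator of aleurone fate, by -0.11, none of them called.

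Cell wall genes held the widest range. Of 17 tested, 13 were above expectation, the median was 0.21, and none was called in the setting reported. A single gene was called above on the values as deposited, 1 below after quantile normalization, 1 below after median centring, and 1 in each direction with the block. HRGP, a hydroxyproline-rich wall glycoprotein, read 82.5, 113 and 105 in Mo17xB73, 873, 452 and 839 in B73xMo17, 21.6, 7.79 and 12.1 in Mo17, and 753, 499 and 598 in B73. Mo17xB73 lay apart from all other groups, below expectation (departure -1.02, adjusted p = 0.0738, and 0.0233 with the block), while an expectation averaged on the log2 scale turned the sign to 0.64. xet1, a xyloglucan endotransglycosylase that remodels walls, read 550, 78.2 and 109 in Mo17xB73, 129, 43.7 and 39 in Mo17, and 77, 61.9 and 53.6 in B73. Its first-date pool stood far above the others in Mo17xB73, and the departure of 1.70 had adjusted p = 0.136, and 0.0183 with the block.

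Genes of metabolism and stress gave no call. The medians were -0.01 over 21 genes of carbon metabolism, 0.03 over 8 of amino acid metabolism, -0.1 over 13 of protein folding, -0.03 over 9 heat shock genes, -0.01 over 25 of detoxification, 0.07 over 8 of oxylipins and ethylene, and 0.01 over 11 hormone genes. The closest to the threshold in these lists were acco20, named as an ACC oxidase of ethylene synthesis, at 0.83 (adjusted p = 0.0796, and 0.0286 with the block), and abp1, an auxin-binding protein, at -0.41 (adjusted p = 0.086, and 0.0456 with the block). For abp1 the levels were 744, 860 and 742 in Mo17xB73, 815, 701 and 818 in Mo17, and 1700, 1430 and 1570 in B73, so the hybrid overlapped Mo17.

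The catalase cat1 departed by -0.31 (adjusted p = 0.131) and the glutathione transferases gst5 and gst30 by 0.72 (adjusted p = 0.133) and 0.79 (adjusted p = 0.168). Probe sets of glutathione transferases can share signal within the family. hsp101, a disaggregating chaperone, departed by 0.77 (adjusted p = 0.535), on readings of 932, 219 and 299 in Mo17xB73, 284, 180 and 517 in Mo17, and 108, 149 and 301 in B73. A single pool set that value.

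Growth and translation genes stayed near 0. Medians were 0.02 over 14 cell cycle genes, -0.01 over 13 cytoskeleton genes, -0.01 over 18 ribosomal protein genes and -0.06 over 13 translation factor genes, 11 of which were below expectation. The 3 housekeeping genes elfa3, gpc4 and gpc3 departed by 0.04, 0.03 and -0.05. Under the alternative scalings the medians of these near-zero lists changed sign, with ribosomal protein genes between -0.1 and 0.06. Among 5 tested proteinase inhibitor and defence genes with a median of 0.67, 3 were the transfer layer genes betl2, bap-1a and bap1-b, and psei1 and psei2 departed by 0.06 and 0.24. The 5 tested genes of the list for green or maternal tissue, among them FDX6, fdx3 and les22, had a median of -0.02. The other 10 genes of that list, among them ssu1, rca1, lhcb5 and Cab-m7, were not tested. This median therefore says little about green or maternal tissue.

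**Figure D5:**
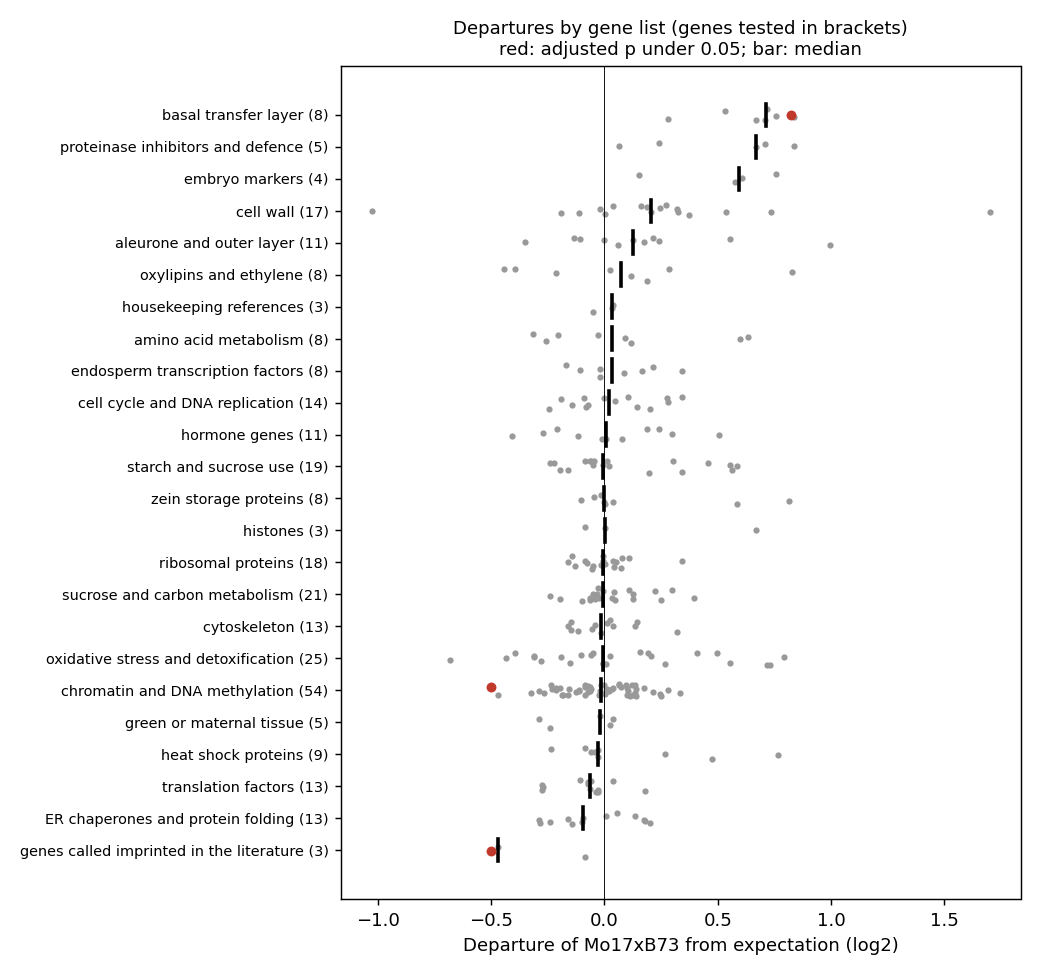
Departure of Mo17xB73 from expectation on the log2 scale (horizontal) for each tested gene of 24 lists, one grey point a gene, red where the adjusted p was under 0.05, with the list median as a black bar. The transfer layer median stands at 0.71 and that of the 3-gene imprinting list, which does not hold meg2, at -0.47. Most other medians lie within 0.1 of 0.

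The reciprocal hybrid B73xMo17 was set against its own expectation, (2 x B73 + 1 x Mo17)/3, from the same parental arrays, so its departures are not independent of those of Mo17xB73. It departed at 144 probe sets (1.23%), 59 above and 85 below. Departures of the 2 hybrids differed from each other at 509 probe sets (4.33%), and at 1005 with the crossing date as a block. Of the 89 probe sets that departed in Mo17xB73, 50 were among them, 28 of the 56 above and 22 of the 33 below, a share that the choice of the 89 raises by itself.

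For meg2 (Zm.12666.1.S1_x_at) the departure was 0.74 in Mo17xB73 and -0.62 in B73xMo17. The difference was 1.36 (SE 0.149, adjusted p = 0.00021), and the B73xMo17 pools read 484, 567 and 571. The brighter meg2 probe set Zm.12666.1.S1_a_at departed by -0.42 in B73xMo17, which did not pass the test (adjusted p = 0.261). Its difference between the hybrids was 1.24 (adjusted p = 0.002). For mez1 the departure was -0.50 in Mo17xB73 and 0.05 in B73xMo17, a difference of -0.55 (adjusted p = 0.0259), with 1250, 895 and 982 in B73xMo17. The 8 transfer layer genes had a median departure of 0.71 in Mo17xB73 and -0.45 in B73xMo17, and the difference passed the test for 5 of them. For tub5, ANT-G2 and SRP1A the difference between hybrids did not pass the test (adjusted p = 0.0829, 0.498 and 0.0614).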

How the data were processed

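Signal intensity values, one per probe set of an Affymetrix maize array, were deposited by the authors. MAS5 made them, per the submitters' processing notes. Its version is not given in the sources used here; nor are the scaling target and detection calls. Per the labels' protocols, 8 micrograms of RNA per pool were labelled with a one-cycle kit. Affymetrix controls, 113 of the 17734 probe sets, were dropped. Arrays were scaled to a common 2% trimmed mean, the dimmest 33.3% of probe sets by overall mean were left out, and log2(intensity + 10.6) was fitted by genotype with limma 3.58.1 in R 4.3.3 (moderated, with a mean trend, with 8 residual degrees of freedom, or 14.1 counting the prior). Standard errors of departures came from the delta method, and p-values were adjusted over all 11747 probe sets by the method of Benjamini and Hochberg. A departure is the log2 of observed over expected. The fit was tested on simulated data.

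The position of Mo17xB73 between the inbreds is a median over probe sets, taken date by date. Deviations of same-date arrays from their genotype means correlated at 0.0473 to 0.408 over 18 pairs, and those of arrays of different dates and genotypes at -0.314 to 0.154 over 36 pairs. The labels tie a replicate number to a crossing date, which is the source of the pairing.

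Genes come from the platform annotation of the array, with symbols updated through the current NCBI gene table: a single gene was paired with 1452 probe sets, several genes with 1, and no gene with 16281. A list uses the brightest probe set of a gene. The members, lists and comparisons were chosen with earlier results of these data known. Genes named in the text are the called probe sets with a gene name and the same sign on all dates (up to 12 in each direction), the 3 genes with the smallest p of each list, and 3 unnamed probe sets in each direction. Alternatives covered scaling, the filter, the constant, the form and weights of the expectation, the arrays fitted, the crossing date as a block, and leaving out arrays. No sequence or coordinate is given, since no sequence of the probe sets was used here.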

Additional observations from a re-analysis of the deposited data

Results flagged for a closer look

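The following genes stand out because the departure of Mo17xB73 from its expectation differed from that of B73xMo17 by a test of the difference itself (limma, adjusted p under 0.05). Both departures rest on the same inbred arrays, and each value below is the departure of Mo17xB73 minus that of B73xMo17 on the log2 scale. Over all tested probe sets such a difference was called at 509 (4.33%). The genes were named for a small p of the Mo17xB73 departure, a choice that raises the difference by itself. A difference does not by itself mean that Mo17xB73 departed. The cause of these differences was not tested.

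Among transfer layer genes the difference was 1.36 and 1.24 for the 2 meg2 probe sets, 1.32 for betl2, 1.43 for bap-1a and 1.41 for bap1-b. In all of these Mo17xB73 was above its expectation and B73xMo17 below its own. The Polycomb gene mez1 differed by -0.55, the SET-domain gene set105 by -0.39 and the coatomer gene copz1 by -0.38.

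Among storage and transport genes the difference was 1.05 for the zein z1C1_12 and 1.49 for the sucrose transporter sut1. In metabolism it was 0.65 for pdc1 and 0.69 for pdc3, which encode pyruvate decarboxylases, 1.32 for the glutamine synthetase gln2, 1.68 for hmt1 and 0.42 for the protein disulfide isomerase pdi3. In detoxification and hormone genes it was 1.35 for gst5, 1.19 for gst30, 1.03 for acco20, -0.87 for abp1 and -1.02 for an1, an ent-copalyl diphosphate synthase of gibberellin synthesis. In cell wall genes it was -1.81 for HRGP and 2.53 for xet1. Of the genes in this paragraph, hmt1 and an1 departed in B73xMo17 (-1.08 and 0.75, limma adjusted p = 0.0337 and 0.0124). In Mo17xB73 these 2 did not pass the test (0.60 and -0.27, adjusted p = 0.32 and 0.456). The others passed it in neither hybrid.

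Among probe sets with no gene in the annotation the difference was 1.71 for Zm.12640.1.S1_at, 1.73 for Zm.17089.1.A1_at, 1.29 for Zm.15874.1.A1_at, -2.14 for Zm.18395.1.S1_at, -1.85 for Zm.16299.2.A1_a_at and -1.23 for Zm.17251.1.A1_at.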

How the results depend on the processing

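The number of probe sets departing in Mo17xB73 was 89 in the setting reported. It was 74 on values as deposited, 111 after quantile normalization, 109 after median centring, 51 with no filter, 227 with the replicate block, 522 with an expectation averaged on the log2 scale, and 356 and 1616 with parental weights of 1 to 1 and 1 to 2. Leaving out 1 array gave 20 to 125 probe sets, 802 to 1357 that differed from Mo17, 5 to 30 outside both parents, 261 to 563 whose departures differed between the hybrids, and a position of 0.326 to 0.341. Alternatives that left out a crossing date, chosen after seeing the data, gave 132, 5 and 2 departing probe sets without date 1, 2 and 3. In the same order 40, 2 and 1 lay outside both parents. Without date 2 and without date 3, 583 and 488 differed from Mo17, 2197 and 2046 from B73, and 94 and 58 between the departures of the hybrids. These fits hold fewer arrays. On values as deposited 760 probe sets differed from Mo17 and 261 departures differed between the hybrids. With the replicate block 62 lay outside both parents and 1005 departures differed, and after median centring 32 lay outside. The position was 0.344 on values as deposited, 0.327 after quantile normalization and 0.35 after median centring. Of 13 named values called, none changed sign with a call, and 108 of their 321 alternative values lost the call. Of 1643 alternative values of uncalled genes 73 became called and 31 changed sign. No other cause was tested. Signal over background limits the dimmest probe sets, whose median standard error was 0.19.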
